A study of Homo sapiens with 6 samples.

Results

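Transcripts of lactate and pyruvate handling were followed in MM.1S, an established line of human myeloma cells, which are malignant plasma cells grown in culture. The group was made up of 10 genes chosen by name for their roles: the lactate dehydrogenase subunits LDHA and LDHB, the monocarboxylate transporters SLC16A1 and SLC16A3 with their chaperone BSG, the mitochondrial pyruvate carrier subunits MPC1 and MPC2, the pyruvate dehydrogenase subunits PDHA1 and PDHB, and the kinase PDK1. All 10 were among the 12760 genes of the deposited expression table. Lenalidomide-resistant cells (LenR, 3 libraries) had been selected by continuous lenalidomide that started at 10 nM and was raised 10-fold each month for 3 months. Cells kept in the solvent DMSO over the same time (WT, 3 libraries) were the comparison, and the genotype label of all 6 libraries reads WT. The labels do not say how many resistant lines were raised or whether lenalidomide was in the medium when cells were collected, so drug exposure and selection cannot be told apart. Replicates are labelled biological, with no word on separate selections, and p-values here cover only how far such cultures spread.

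Lactate dehydrogenase interconverts pyruvate and lactate in the cytosol, and it is a tetramer of A and B subunits in varying proportion. Lactate leaves and enters cells through monocarboxylate transporters, of which MCT1 and MCT4 need basigin to reach the plasma membrane. Pyruvate that is not reduced to lactate enters mitochondria through a carrier of MPC1 and MPC2 and is turned into acetyl-CoA by the pyruvate dehydrogenase complex, which kinases such as PDK1 switch off by phosphorylation and phosphatases such as PDP2 switch back on. Proliferating tumour cells, myeloma cells among them, are known for a high output of lactate, and lactate is also the source of the lysine lactylation named in the title of the series.

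Values are FPKM, which divide the fragments of a gene by its length and by a library size, so levels of different genes can be set side by side. Such a comparison depends on the gene length that was counted. The reads behind the table came to between 14500140 and 17169574 in the LenR libraries and between 14685382 and 17387914 in the WT libraries. Behind a single member stood at least 302 reads per library, the lowest being for SLC16A3, and at most 19642, for LDHA in WT replicate 1. The first principal component (58.1% of the variance) separated the groups. The second (26.8%) held LenR replicate 2 (−13.7) and WT replicate 3 (−14.0) at its low end. At its high end was LenR replicate 3 (12.7), with the other libraries between 2.62 and 6.62. Of the 10 members, 8 lay below their group mean in LenR replicate 2, and likewise 8 of 10 in WT replicate 3. In LenR replicate 3, 8 of 10 lay above it. The same counts were not made over all genes tested, so these are not read as a trait of the members. The 9 plasma cell markers looked at were all listed, and their summed level was 4617 to 5550 FPKM in LenR and 3918 to 4534 FPKM in WT. These ranges of the sum did not overlap, although those of JCHAIN (the largest part, mean 2417 FPKM), MZB1 and TNFRSF17 did. SDC1, CD38, PRDM1, XBP1, IRF4 and SLAMF7 were each higher in every LenR library than in any WT library. The part of this shift in the members' levels was not tested. For other cell types, 1 of 5 T and NK cell markers was listed (CD3E, 1.86 to 2.09 FPKM in LenR and 2.26 to 2.90 FPKM in WT), 1 of 3 erythroid markers (HBB, 5.55 to 8.31 FPKM in LenR and 5.83 to 7.11 FPKM in WT), 1 of 4 epithelial and stromal markers (COL1A1, at most 0.429 FPKM in LenR and 0.265 FPKM in WT) and none of 4 myeloid markers.

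By limma on log2(FPKM + 1), 2 of the 10 members passed an adjusted p of 0.05, 1 in each direction. SLC16A3 fell and PDK1 rose in LenR cells. In bulk RNA of this kind, fewer cells that make a transcript and less of it per cell cannot be told apart. Over all 11276 genes tested, 15.1% passed, 8.57% higher and 6.57% lower, so 2 of 10 members is a share near that of genes at large. The LenR and WT values of 3 members (SLC16A3, PDK1 and SLC16A1) did not overlap, against 34.5% of all genes tested. The median log2 fold change of the members was −0.045, against −0.0023 over all genes tested. The remaining 8 members had adjusted p-values between 0.292 and 0.966.

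**Figure D1:**
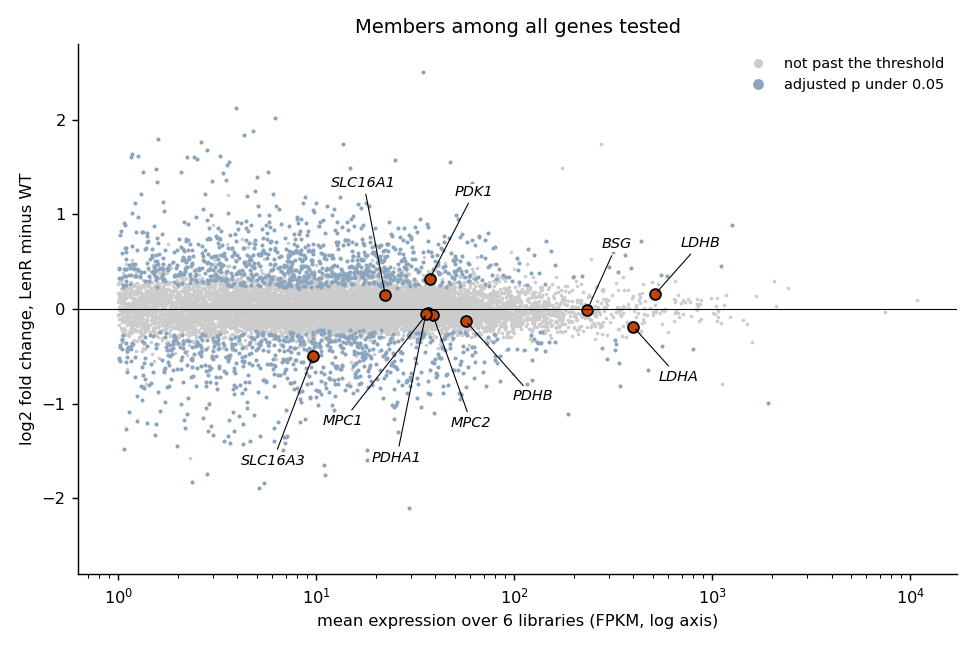
Log2 fold change of LenR over WT (y axis) against mean expression over the 6 libraries (x axis, FPKM, log scale) for all 11276 genes tested, with the 10 members as large labelled points. SLC16A3 and PDK1 lie among the genes past the threshold, and the other members lie at most 0.18 from 0 on the log2 scale.

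SLC16A3 encodes MCT4, a transporter known chiefly for lactate export from glycolytic cells. It measured 8.66, 7.78 and 6.96 FPKM in LenR replicates 1 to 3, against 10.6, 11.3 and 12.4 FPKM in WT replicates 1 to 3. Every LenR library was below every WT library. The means were 7.80 ± 0.851 FPKM in LenR and 11.4 ± 0.896 FPKM in WT (SD, n = 3 each), and the log2 fold change was −0.50 (SE 0.091, adjusted p = 0.00859), which is 0.707 times the WT level on the FPKM + 1 scale with a 95% interval of 0.611 to 0.819. The log2 difference was −0.60 between LenR replicate 2 and WT replicate 3 and −0.45 among the other 4 libraries. It was the lowest of the 10 members in level and the one whose call held under all 19 alternatives, with adjusted p between 0.0038 and 0.0482. The gene lies at chr17:82228397-82261129 (GRCh38, plus strand). For the 67 other tested genes within 5 Mb the median log2 fold change was 0.011, with 30 below 0 and 37 above. In GENCODE 29 its exons cover 8995 bases and share 482 of them with CSNK1D on the opposite strand. The deposited values imply a counted length of 2482 bases, so the counted gene model differs and may not hold the shared bases. Without a stated strand setting, reads in shared bases cannot be assigned. CSNK1D itself measured 49.0 ± 2.69 FPKM in LenR and 49.1 ± 2.53 FPKM in WT (SD, n = 3 each).

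SLC16A1 encodes MCT1, which carries lactate in either direction. Its values were 22.7, 22.3 and 25.5 FPKM in LenR replicates 1 to 3 and 22.0, 22.1 and 19.3 FPKM in WT replicates 1 to 3. The LenR libraries were all above the WT libraries, but the lowest LenR and highest WT values lay close together. The log2 fold change of 0.15 (SE 0.083, 95% interval −0.045 to 0.34) did not pass (adjusted p = 0.292). Of the pair, SLC16A3 made up 27.6, 25.9 and 21.4% of the summed SLC16A1 and SLC16A3 FPKM in LenR replicates 1 to 3, against 32.4, 33.96 and 39.1% in WT replicates 1 to 3. The shares of the groups did not overlap, with LenR replicate 3 the lowest and WT replicate 3 the highest. The summed level itself was 31.3 ± 1.195 FPKM in LenR and 32.5 ± 0.904 FPKM in WT (SD, n = 3 each), and these ranges overlapped. No test was made of the shares, which combine members.

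BSG encodes basigin (CD147), the partner that brings both transporters to the membrane. It was far more abundant per length than either of them, at 233 ± 13.4 FPKM in LenR and 234 ± 3.11 FPKM in WT (SD, n = 3 each). LenR replicate 1 gave both the highest value of all, 249 FPKM, and the widest departure from its group. The log2 fold change was −0.0075 (SE 0.078, 95% interval −0.19 to 0.17). The ratio of BSG to the summed transporters was 7.45 ± 0.508 in LenR and 7.20 ± 0.265 in WT (SD, n = 3 each), with overlapping ranges. EMB, the alternative chaperone embigin, measured 41.4 ± 3.14 FPKM in LenR and 40.0 ± 4.27 FPKM in WT (SD, n = 3 each) and did not pass (adjusted p = 0.807).

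LDHA and LDHB were the most abundant members, above 99.2% of all genes in the table. LDHA, whose subunit favours the reduction of pyruvate, measured 367, 342 and 409 FPKM in LenR replicates 1 to 3, against 439, 447 and 385 FPKM in WT replicates 1 to 3. LDHB, whose subunit favours the oxidation of lactate, measured 539, 473 and 615 FPKM in LenR replicates 1 to 3, against 503, 507 and 445 FPKM in WT replicates 1 to 3. The groups overlapped for each gene, with the low values in LenR replicate 2 and WT replicate 3 for both genes. The log2 fold change of LDHA was −0.18 (SE 0.10, 95% interval −0.43 to 0.056, adjusted p = 0.293), and that of LDHB was 0.16 (SE 0.12, 95% interval −0.12 to 0.43, adjusted p = 0.447). LDHA passed under 1 of the 19 alternatives, with a term for LenR replicate 2 and WT replicate 3 (adjusted p = 0.0374), and LDHB under none of them (lowest adjusted p = 0.0932).

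The balance of the subunits within a library varied less among replicates than either level. LDHA made up 40.5, 42.0 and 39.9% of the summed LDHA and LDHB FPKM in LenR replicates 1 to 3, against 46.6, 46.8 and 46.4% in WT replicates 1 to 3. All LenR shares were below all WT shares, also in LenR replicate 2 and WT replicate 3, which were low in both genes. The log2 ratio of the share was −0.14 between LenR replicate 2 and WT replicate 3 and −0.22 among the other 4 libraries. How often shares of other gene pairs separate the groups was not counted. The mean share was 40.8 ± 1.04% in LenR and 46.6 ± 0.242% in WT (SD, n = 3 each). The summed level was 915 ± 105 FPKM in LenR and 908 ± 68.4 FPKM in WT (SD, n = 3 each), with overlapping ranges. By FPKM, LDHB exceeded LDHA in all 6 libraries. That order depends on the implied counted lengths, 2553 bases for LDHA and 1600 for LDHB. By reads alone LDHA was the higher in each library (WT replicate 1: 19642 for LDHA and 14109 for LDHB). The share combines 2 members and was given no test. In GENCODE 29, 997 of the 2983 exonic bases of LDHB are shared with AC010197.2 on the same strand. The deposited values imply a counted length of 1600 bases, so whether the shared bases were counted is not known. Both LDHA and LDHB have processed pseudogenes elsewhere in the genome. Reads can be lost to these pseudogenes, depending on how multiply aligned reads were counted.

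**Figure D2:**
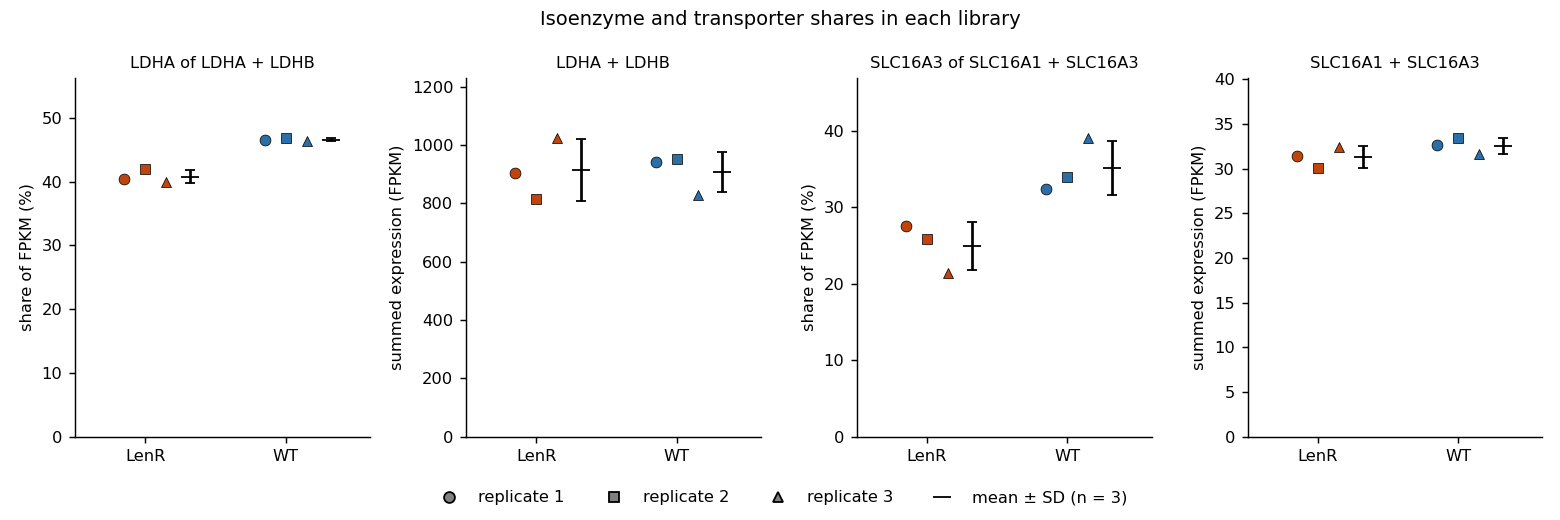
LDHA as a percent of summed LDHA and LDHB FPKM, the summed FPKM itself, SLC16A3 as a percent of summed SLC16A1 and SLC16A3 FPKM, and that sum, per library, with LenR left of WT (points are libraries, bars are mean ± SD, n = 3). Both shares separate the groups (LDHA 39.9 to 42.0% in LenR and 46.4 to 46.8% in WT), while both sums overlap.

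The mitochondrial pyruvate carrier genes did not differ beyond their spread. MPC1 measured 36.0, 30.7 and 41.5 FPKM in LenR replicates 1 to 3 and 38.7, 39.9 and 32.4 FPKM in WT replicates 1 to 3. MPC2 measured 41.8, 32.05 and 40.2 FPKM in LenR replicates 1 to 3 and 42.4, 41.6 and 35.1 FPKM in WT replicates 1 to 3. The low libraries were again LenR replicate 2 and WT replicate 3, and the groups overlapped for both subunits. The log2 fold changes were −0.041 for MPC1 (95% interval −0.33 to 0.25, adjusted p = 0.878) and −0.065 for MPC2 (95% interval −0.34 to 0.21, adjusted p = 0.785). By FPKM the 2 subunits, which form a heterodimer, were at a near even level. The ratio of MPC1 to MPC2 was 0.9502 ± 0.0851 in LenR and 0.932 ± 0.0251 in WT (SD, n = 3 each). This ratio depends on the implied counted lengths, 1427 bases for MPC1 and 2523 for MPC2. By reads alone MPC2 was the higher in each library (WT replicate 1: 968 for MPC1 and 1876 for MPC2). The sign of the small differences of MPC1, MPC2 and BSG turned under some alternatives. Of the exonic bases of MPC2, 22.5% are shared with DCAF6 on the opposite strand, whose own level was 32.1 ± 2.37 FPKM in LenR and 32.8 ± 1.096 FPKM in WT (SD, n = 3 each).

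PDHA1 and PDHB encode the alpha and beta subunits of the E1 component, the decarboxylase of the pyruvate dehydrogenase complex. PDHA1 measured 35.4, 33.0 and 37.2 FPKM in LenR replicates 1 to 3 and 37.2, 35.8 and 36.2 FPKM in WT replicates 1 to 3, with overlapping groups. PDHB measured 52.7, 49.6 and 60.7 FPKM in LenR replicates 1 to 3 and 61.8, 62.7 and 53.3 FPKM in WT replicates 1 to 3, also overlapping. Neither passed, with log2 fold changes of −0.048 for PDHA1 (95% interval −0.21 to 0.11, adjusted p = 0.713) and −0.12 for PDHB (95% interval −0.36 to 0.11, adjusted p = 0.479). The ratio of PDHA1 to PDHB was 0.650 ± 0.0324 in LenR and 0.617 ± 0.0558 in WT (SD, n = 3 each), with overlapping ranges. None of the other core subunits of the complex passed. The log2 fold change was 0.054 for the acetyltransferase E2 gene DLAT (adjusted p = 0.684), −0.042 for PDHX, the E3-binding protein (adjusted p = 0.802), and −0.21 for the E3 dehydrogenase gene DLD (adjusted p = 0.215).

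PDK1, which phosphorylates and inhibits that complex, was higher in LenR. It measured 39.6, 42.0 and 43.2 FPKM in LenR replicates 1 to 3, against 32.9, 34.1 and 32.4 FPKM in WT replicates 1 to 3. All LenR libraries were above all WT libraries. LenR replicate 2 and WT replicate 3, low in most members, deviated from their group means here by 0.015 and −0.030 on the log2 scale. The means were 41.6 ± 1.82 FPKM in LenR and 33.2 ± 0.847 FPKM in WT (SD, n = 3 each), and PDK1 rose by 0.32 on the log2 scale (SE 0.066, adjusted p = 0.0151) or 1.25-fold with a 95% interval of 1.12 to 1.39. The difference was 0.36 between LenR replicate 2 and WT replicate 3 and 0.30 among the other 4 libraries. The call ended in 4 of the 19 alternatives, among them those without WT replicate 1 (adjusted p = 0.0834), without WT replicate 2 (0.0588) and with WT replicates 1 and 2 averaged (0.0675), although the log2 fold change stayed between 0.29 and 0.35 in all 19 alternatives. PDK1 lies at chr2:172555373-172608669 (GRCh38, plus strand), and the median log2 fold change of 34 neighbours within 5 Mb was −0.032. Of the 14883 exonic bases of PDK1, 445 are shared with AC078883.1 on the opposite strand.

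**Figure D3:**
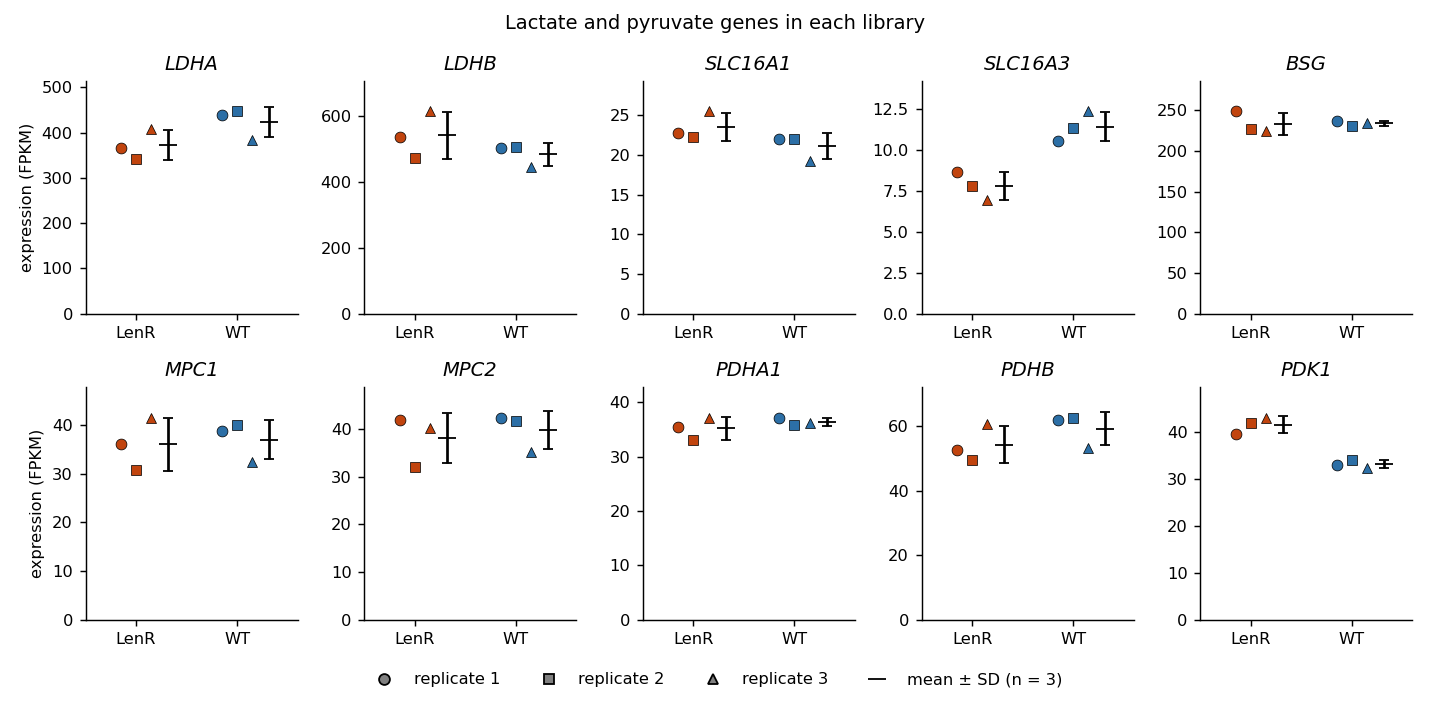
Expression (y axes, FPKM, from 0) of the 10 members in each library, LenR left of WT, with a marker shape for each replicate number and bars for the mean ± SD (n = 3). SLC16A3 (6.96 to 8.66 FPKM in LenR, 10.6 to 12.4 FPKM in WT) and PDK1 (39.6 to 43.2 FPKM in LenR, 32.4 to 34.1 FPKM in WT) separate clearly, and several others share low values in LenR replicate 2 and WT replicate 3.

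By level the members formed 4 tiers. LDHB (mean over the 6 libraries 514 FPKM), LDHA (398) and BSG (234) led, followed by PDHB (56.8), then by MPC2 (38.8), PDK1 (37.4), MPC1 (36.5) and PDHA1 (35.8), and last by SLC16A1 (22.3) and SLC16A3 (9.61). Over the 6 libraries the ranges of the 4 genes from MPC2 to PDHA1 overlapped, and those of LDHB and LDHA touched. LDHB was the higher in FPKM in each library, but not in reads. Within the tier from MPC2 to PDHA1, PDK1 had the highest mean in LenR (41.6 FPKM) and the lowest in WT (33.2 FPKM).

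PDK1 was the main isoform of the kinase family in this table. It made up 72.2, 73.2 and 75.3% of the summed PDK1, PDK2 and PDK3 FPKM in LenR replicates 1 to 3, against 69.6, 69.3 and 65.2% in WT replicates 1 to 3. These shares did not overlap and were given no test. PDK2 averaged 11.5 ± 0.879 FPKM in LenR and 12.3 ± 1.75 FPKM in WT, and PDK3 3.405 ± 0.233 FPKM in LenR and 3.28 ± 0.218 FPKM in WT (SD, n = 3 each), and neither passed (adjusted p = 0.651 for PDK2 and 0.782 for PDK3). PDP2, a phosphatase that reverses the action of the kinases, was also higher, at 9.95 ± 0.552 FPKM in LenR and 7.77 ± 0.592 FPKM in WT (SD, n = 3 each; log2 fold change 0.32, SE 0.075, adjusted p = 0.026). Its call ended in 5 of the 6 fits without 1 library, the exception being that without LenR replicate 2. For PDP1, the other catalytic phosphatase subunit, the log2 fold change was −0.10 (adjusted p = 0.432). RNA levels do not show the phosphorylation state of the complex, which was not measured here.

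Of 34 other genes of lactate and pyruvate metabolism, 25 were listed and 22 reached the mean of 1 FPKM needed for a test. Of these 22, 5 rose in LenR and none fell by limma at adjusted p 0.05, and 9 had an unadjusted p under 0.05 in either direction. Of all genes tested, 8.57% were called higher, 6.57% lower, and 28.7% had an unadjusted p under 0.05. Voom on recovered reads also gave 5 higher and none lower, but with a term for LenR replicate 2 and WT replicate 3, under which 3163 of all genes passed against 1707, DLD (adjusted p = 0.0382) and PKM (adjusted p = 0.0251) passed as lower. The median log2 fold change of the 22 genes was 0.051, against −0.0023 over all genes tested. Beside PDP2, the 5 were PCK2, GPT2, GPT and ME1, which make or use pyruvate and phosphoenolpyruvate on routes other than lactate dehydrogenase.

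PCK2, mitochondrial phosphoenolpyruvate carboxykinase, measured 9.32, 9.57 and 8.09 FPKM in LenR replicates 1 to 3, against 5.89, 5.35 and 5.96 FPKM in WT replicates 1 to 3 (log2 fold change 0.57, SE 0.080, adjusted p = 0.00258). GPT2, the mitochondrial alanine transaminase that exchanges pyruvate and alanine, measured 21.4, 23.5 and 20.3 FPKM in LenR replicates 1 to 3, against 14.01, 13.4 and 15.6 FPKM in WT replicates 1 to 3 (log2 fold change 0.57, SE 0.083, adjusted p = 0.00299). Groups were apart for both genes, and both calls held under all 19 alternatives. GPT, the cytosolic alanine transaminase, measured 13.1, 9.70 and 8.49 FPKM in LenR replicates 1 to 3, against 6.89, 6.75 and 6.78 FPKM in WT replicates 1 to 3 (log2 fold change 0.53, SE 0.13, adjusted p = 0.035). GPT stands on chromosome 8 among 58 tested neighbours within 5 Mb whose median log2 fold change was 0.49, 57 of them above 0, and its call ended without any 1 of the WT libraries (adjusted p 0.0707 to 0.099). ME1, cytosolic malic enzyme, averaged 20.3 ± 0.969 FPKM in LenR and 16.6 ± 1.01 FPKM in WT (SD, n = 3 each; log2 fold change 0.28, adjusted p = 0.037), and its call ended in all 6 fits without 1 library.

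PKM, pyruvate kinase, which makes the pyruvate, measured 241 ± 3.94 FPKM in LenR and 273 ± 11.4 FPKM in WT (SD, n = 3 each). Its groups did not overlap, but the log2 fold change of −0.18 did not pass (adjusted p = 0.159), except with that term. The carboxylase gene PC was looked for but was not among the genes listed.

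**Figure D4:**
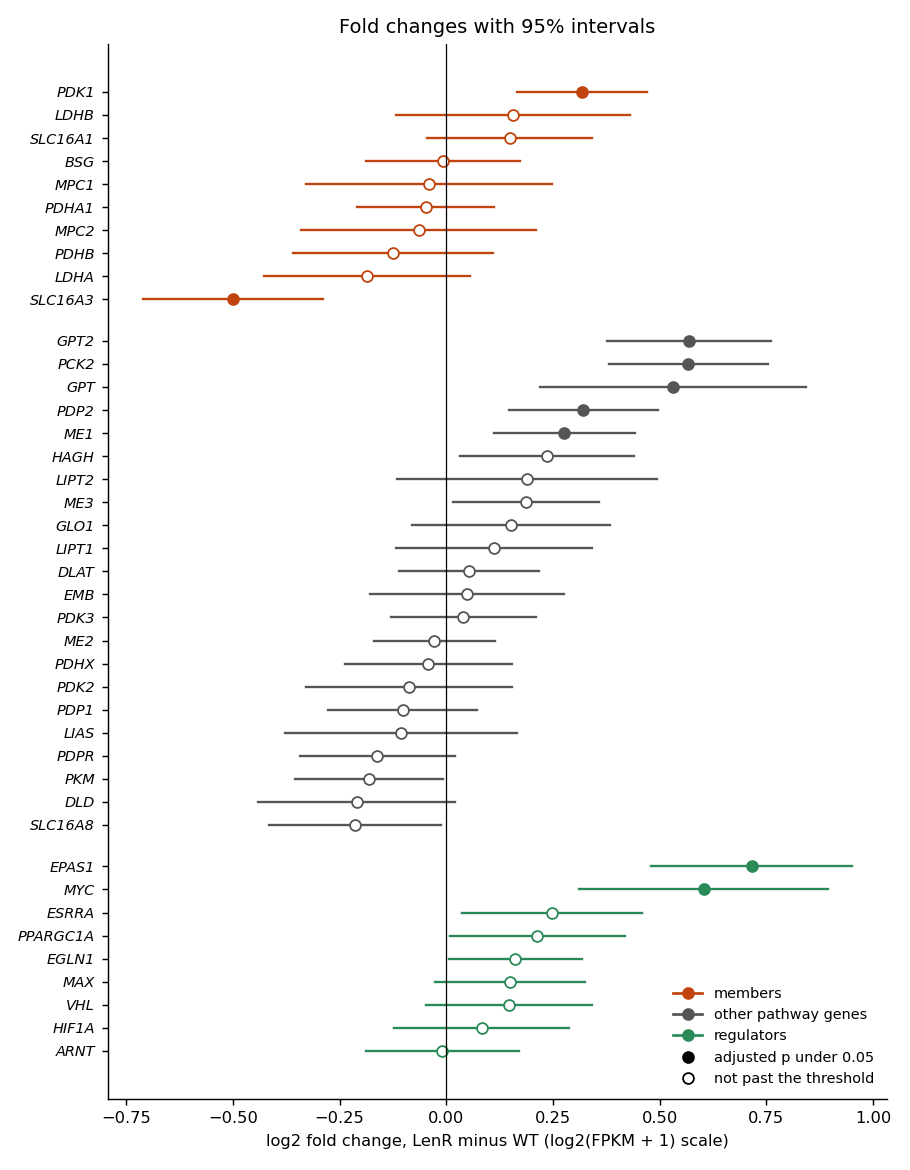
Log2 fold changes of LenR over WT with 95% intervals for the 10 members, 22 other pathway genes and 9 regulators, filled where the adjusted p was under 0.05. SLC16A3 (−0.50) and PDK1 (0.32) are the filled members, and the filled genes of the other lists all lie above 0.

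SLC16A3, PDK1 and LDHA are textbook targets of hypoxia-inducible factors, which bind the core ACGTG, and LDHA also of MYC, which binds CACGTG. Sequences before their transcript starts are shown because these 3 genes, known to share a regulator, did not change alike here. SLC16A3 was called lower, PDK1 was called higher and LDHA did not pass. RefSeq (GRCh38.p14) windows of 250 bases before a start were found for 9 of the 10 members and searched for ACGTG on both strands, with capitals marking each match. CACGTG holds ACGTG on both strands and is capitalised as 1 run.
SLC16A3, chr17:82228792-82229031, plus strand, ending 10 bases before the start: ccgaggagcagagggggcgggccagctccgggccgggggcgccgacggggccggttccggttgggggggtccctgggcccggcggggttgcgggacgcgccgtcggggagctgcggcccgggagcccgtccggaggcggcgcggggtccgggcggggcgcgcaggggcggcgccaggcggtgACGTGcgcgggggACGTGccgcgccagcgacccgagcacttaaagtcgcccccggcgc
PDK1, chr2:172556060-172556089, plus strand, the last 30 bases before the start: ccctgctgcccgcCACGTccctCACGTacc
LDHA, chr11:18394366-18394395, plus strand, ending 167 bases before the start: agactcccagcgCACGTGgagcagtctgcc
LDHA, chr11:18394470-18394499, plus strand, ending 63 bases before the start: gactcaCACGTGggttcccgCACGTccgcc

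Each of these 3 genes had 1 window with a match, out of 5 windows for SLC16A3 and 2 each for PDK1 and LDHA. SLC16A3 held 2 places on the plus strand, PDK1 2 on the minus strand, and LDHA 3, of which 2 were CACGTG. Among all 35116 windows of that length, 18.5% held ACGTG at least once and 6.35% held CACGTG. At least 2 matches, with CACGTG counted as 2, were held by 7.5% of windows. These shares are per window, and a gene with more windows has more places for a match. BSG and PDHB also had a window with CACGTG. Windows of LDHB, MPC1, MPC2 and PDHA1 held no ACGTG. The table gives 1 value per gene, so which start was used was not measured, and a match describes letters only.

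Of the 10 regulators looked at, 9 were tested, 2 rose and none fell by limma at adjusted p 0.05, and 5 had an unadjusted p under 0.05 in either direction, beside the 15.1% called and 28.7% under an unadjusted 0.05 of all genes tested. Voom on recovered reads likewise called 2 higher and no regulator lower. EPAS1 (HIF-2 alpha) measured 4.81, 5.91 and 4.73 FPKM in LenR replicates 1 to 3, against 2.91, 2.36 and 2.95 FPKM in WT replicates 1 to 3 (log2 fold change 0.72, SE 0.10, adjusted p = 0.0026). The groups were well apart, and the call held under all 18 alternatives in which the gene was kept. HIF1A, the more abundant alpha subunit, measured 9.53 ± 0.991 FPKM in LenR and 8.93 ± 0.636 FPKM in WT (SD, n = 3 each) and did not pass (adjusted p = 0.606). MYC measured 382 ± 54.1 FPKM in LenR and 250.4 ± 26.4 FPKM in WT (SD, n = 3 each), a log2 rise of 0.60 (SE 0.13, adjusted p = 0.0157), and its neighbours within 5 Mb on chromosome 8 had a median of 0.14. The MYC call was lost in 5 of the 19 alternatives, among them those without WT replicate 1 (adjusted p = 0.0722), without WT replicate 2 (0.0709) and without LenR replicate 1 (0.0603). The part of these regulators in the members' levels was not tested.

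Over the 6 libraries, the 3 genes most like SLC16A3 by Pearson correlation of log2(FPKM + 1), among 8308 genes averaging 5 FPKM or more, were FAAH (r = 0.993), BRAT1 (r = 0.992) and LMNA (r = 0.991). For PDK1 they were ANKRD28 (r = 0.997), NAA25 (r = 0.996) and SBNO1 (r = 0.993). FAAH and LMNA lie on chromosome 1, BRAT1 on chromosome 7, ANKRD28 on chromosome 3, and NAA25 and SBNO1 both on chromosome 12. Whether whole chromosome segments around these genes differed between the groups was not examined here. The groups make up most of such a pattern over 6 libraries, and 116 genes for SLC16A3 and 235 for PDK1 had an r over 0.95.

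**Figure D5:**
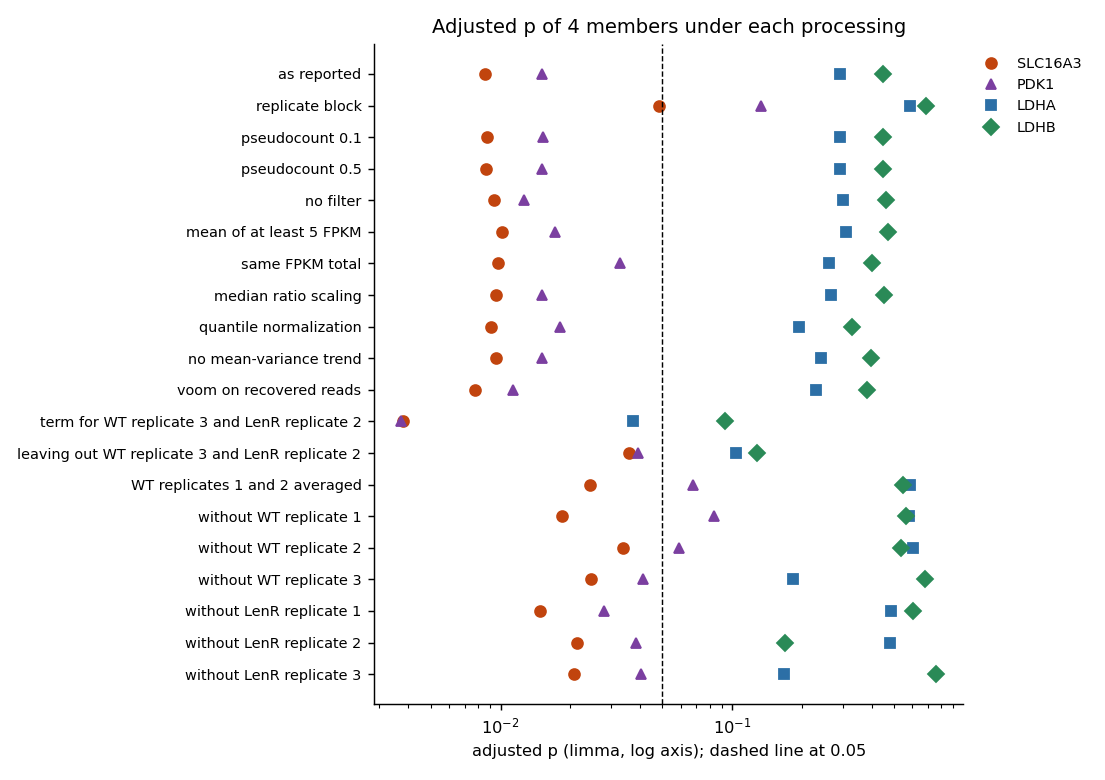
Adjusted p (x axis, log scale, dashed line at 0.05) of SLC16A3, PDK1, LDHA and LDHB as reported and under each of 19 processing alternatives (y axis). SLC16A3 stays left of the line throughout (0.0038 to 0.0482), PDK1 crosses it in 4 of them, LDHA passes in 1 and LDHB in none.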

How the data were processed

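The authors deposited 1 table of FPKM values with 1 column per library, and each column was assigned by its group and replicate number. The submitters' processing notes name edgeR 3.40.2, featureCounts 2.0.3, HISAT2 2.2.1, FastQC 0.11.9 and the build hg38, with no role or order. Annotation, strand setting and expression filter: not given in the sources used here. Steps of the values gave back whole reads for all 12760 genes (tolerance 0.03 read). Library sizes implied by the values lay between 0.488% below and 1.84% above the summed reads. The size below the summed reads was that of WT replicate 3, so the divisor there was not a plain total of reads.

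Tests ran on log2(FPKM + 1) for 11276 genes averaging 1 FPKM or more, using limma 3.58.1 under R 4.3.3 (a trended empirical Bayes prior, 3.75 prior degrees of freedom, group as the only term), two-sided, with Benjamini-Hochberg adjustment over all of them. Fold changes are on this scale, which understates those of low genes. The code was tested on simulated data. Positions came from GENCODE 29 for 11996 genes (94.0%), promoters from RefSeq.

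Members, lists, tests and the 19 alternatives were chosen with earlier results of these data known. Named were all members, list genes past the threshold, 10 list genes fixed by name, and the 3 genes most like each called member. The share of PDK1 among PDK genes was added after values were seen. Figures were drawn with matplotlib 3.10.9.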

Additional observations from a re-analysis of the deposited data

How the results depend on the processing

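The number of genes past adjusted p 0.05 was 1707, and it was 907 with the replicate number as a block, 1075 with a mean of at least 5 FPKM, 3163 with a term for LenR replicate 2 and WT replicate 3, 1052 with WT replicates 1 and 2 averaged, 1822 without both LenR replicate 2 and WT replicate 3, and 1007 to 1562 without 1 library. Of the members, 2 passed, and 1 (SLC16A3) with the block or with WT replicates 1 and 2 averaged, 3 with the term for LenR replicate 2 and WT replicate 3, and 1 to 2 without 1 library. Of the other pathway genes, 5 passed, and 3 with the block, 3 without both LenR replicate 2 and WT replicate 3, 2 with WT replicates 1 and 2 averaged, 7 (5 higher and 2 lower) with the term for LenR replicate 2 and WT replicate 3, and 2 to 4 without 1 library. Of the regulators, 2 passed, and 1 with the block, with a mean of at least 5 FPKM (7 genes kept) or with WT replicates 1 and 2 averaged, 3 with that term or without both of its libraries, and 1 to 3 without 1 library. The sign turned for BSG with quantile normalization (0.018) and without both LenR replicate 2 and WT replicate 3 (0.015), and for MPC1 with WT replicates 1 and 2 averaged (0.0039). Without 1 library, log2 fold changes ran from −0.054 to 0.019 for BSG, −0.15 to 0.068 for MPC1 and −0.15 to 0.051 for MPC2. None of these 3 genes passed under any alternative. The cause of these differences was not tested.

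Same-numbered LenR and WT libraries did not deviate together (r over genes 0.024, −0.557 and −0.683 for numbers 1, 2 and 3), so the numbers were not taken to pair samples, and none correlated best with its own number. With the replicate block, the adjusted p was 0.0482 for SLC16A3, and the calls of PDK1 (0.133), PDP2 (0.132), ME1 (0.192) and MYC (0.0754) were lost. With WT replicates 1 and 2 averaged, the adjusted p of MYC was 0.0723. At 302 to 467 reads per library, SLC16A3 is the member that depth limits most.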
